A study of Mus musculus with 4 samples.

Results

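The genes described here are 10 genes of the machinery with which a cell detects foreign or misplaced RNA and DNA: Ddx58, Ifih1, Dhx58, Mavs, Tlr3, Zbp1, Tbk1, Ikbke, Eif2ak2 and Trim25. They were chosen by name, with earlier results of these data known. All 10 were found among the 25393 genes listed for primary mouse astrocyte cultures. The group carries the name of cytosolic nucleic acid sensors, but only some of the proteins are sensors in the cytosol. Tlr3 reads RNA inside endosomes, Mavs is an adaptor, Tbk1 and Ikbke are kinases, and Trim25 is a ubiquitin ligase. Mean levels of all 10 genes were lower in the libraries labelled Tet1 KO than in WT. The gap was smallest for the kinase Tbk1, whose groups overlapped, and widest for the helicase Dhx58 and the Z-form nucleic acid sensor Zbp1, with 32 and 3 reads left over the KO-labelled libraries.

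In a cell that meets viral RNA, the helicases RIG-I (encoded by Ddx58) and MDA5 (Ifih1) bind double-stranded RNA and pass the signal to MAVS on the outer mitochondrial membrane. The kinases TBK1 and IKKε (Ikbke) then phosphorylate the transcription factors IRF3 and IRF7, which switch on type I interferon genes. Interferon acts back on the same and on neighbouring cells through its receptor, and many sensor genes are themselves targets of that loop. Astrocytes express several of these sensors and can respond to viral RNA and its mimics.

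The cultures came from cortex and hippocampus of C57BL/6 pups at postnatal day 1, with 2 mice per isolation, and no culture was treated. The cells grew for about 7 days, were shaken at 260 rpm to remove loosely attached cells and were collected 24 h later. WT pups were compared with Tet1-/- pups, a constitutive knockout in which every cell type of the culture carries the deletion. Each genotype had 2 libraries, with 18749610 and 22673555 reads on genes in WT and 20702980 and 22403163 in KO. Values are normalized counts, that is, read counts divided by 1 size factor for each library, so that 1 read is worth 0.901 to 1.07. Tet1 itself had 266 and 121 normalized counts in WT against 173 and 463 in KO (log2 fold change 0.66, adjusted p = 0.691 from limma, Benjamini-Hochberg). A count over the whole gene does not tell intact transcripts from deleted ones. As the targeted gene was not lower, the second group is called the KO-labelled libraries, and every direction below rests on that label. The study calls its RNA-seq repeats biological and describes more of them per genotype than the libraries analysed here. The labels add only replicate numbers, so p-values measure the spread between these libraries. The KO-labelled libraries were more than 2-fold apart for 27.5% of well-measured genes (mean of at least 50 in that group), against 10.6% for the WT libraries.

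The astrocyte label was checked with marker levels as FPKM, which corrects the reads for the length of the gene and the total of the library. Slc1a3, the glutamate transporter GLAST, had 239 and 243 FPKM in WT against 152 and 106 in the KO-labelled libraries. Aldh1l1, a folate enzyme used as an astrocyte marker, had 52.3 and 63.7 FPKM in WT against 44.5 and 27.3 in the KO-labelled libraries. Gfap, the intermediate filament of astrocytes, had 687 and 765 FPKM in WT against 1871 and 117 in the KO-labelled libraries. All 3 astrocyte markers were therefore present in all 4 libraries, with Gfap uneven between the KO-labelled libraries. Xist, the RNA that coats the inactive X chromosome, had 8.54 and 0.92 normalized counts in WT against 2896 and 13367 in the KO-labelled libraries. Xist was picked after its values were seen, and a difference in sex between the cultures and the label cannot be told apart.

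Sequences at the starts of the sensor genes are shown because many genes that respond to interferon carry interferon-stimulated response elements, in which GAAA blocks recur. RefSeq promoters (GRCm38.p6), reaching from 250 bases before to 50 bases after the start of transcription, were found for 8 of the 10 genes, and Dhx58 and Zbp1 had no entry in the table. The motif searched was GAAANNGAAA on both strands. Of the 8 promoters, 3 held it, against 3.44% of the 32851 promoters in the table. The 3 sites, read 5′ to 3′ on the strand of the gene with the blocks in capitals (TTTC where the blocks lie on the opposite strand), were as follows.
Ddx58: cctgaggcagTTTCgaTTTCctatggccag
Ifih1: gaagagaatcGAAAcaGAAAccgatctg
Eif2ak2: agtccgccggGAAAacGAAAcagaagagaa
The Ddx58 window lay at chr4:40239804-40239833, the Ifih1 window at chr2:62646206-62646233 and the Eif2ak2 window at chr17:78882535-78882564, each on the minus strand. All 3 sites began downstream of the start, at position 3 for Ddx58, 33 for Ifih1 and 19 for Eif2ak2, counted from 1 at the first transcribed base of the table's entry.

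Allowing 1 mismatch in either block widened the match to 7 of the 8 promoters, all but Mavs, but 35.44% of all promoters in the table then also matched. The Tlr3 match of this looser kind lay at positions -59 to -50, and the window printed around it at chr8:45410420-45410449 on the minus strand. That window lies inside the annotated Tlr3 gene (chr8:45395665-45411080), as the start of the promoter table's entry falls within the gene.
Tlr3: agtgaatggcTTTCacTTTgtttagacaca
Eif2ak2 also held a second kind of interferon element, the GAS type, searched as TTCNNNGAA on both strands and read as ttcccagaa at positions -178 to -170. It was the only one of the 8 with that motif, and 8.3% of all promoters had one. A match of letters is a description of the reference sequence and not a measurement of binding.

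Of the 10 genes, 9 had their 2 KO-labelled values below both WT values, a pattern seen in 25.4% of the 22094 genes tested. Tbk1 was the exception. As the 10 genes were chosen with earlier results of these data known, the shares over all genes are given as descriptions and not as tests. The median log2 fold change over the 10 genes was -1.85, beside -0.07 over all tested genes. All 10 passed the minimum mean of 1 normalized count. At an adjusted p under 0.05 from limma, 0 of the 10 were called, as were 0 of all tested genes (0%), the lowest adjusted p being 0.0777. Unadjusted, 3032 of all tested genes had a p under 0.05 in limma. The adjusted p of the 10 genes ran from 0.102 to 0.831 in limma. At an unadjusted p under 0.05, limma had 7 of the 10 lower, beside 9.18% of all tested genes, and 0 higher, beside 4.54%. Without WT replicate 1 that count was 4 (Ddx58, Dhx58, Zbp1 and Trim25). DESeq2 on the recovered reads called 5 of the 10 lower at an adjusted p under 0.05 (Ddx58, Dhx58, Zbp1, Ikbke and Trim25), beside 4.80% of the genes to which it gave an adjusted p. The quasi-likelihood test of edgeR on the same reads called 0 of the 10, with adjusted p from 0.166 to 0.853. It called 0 of all genes that passed its own filter on low reads. Of these, 2377 had an unadjusted p under 0.05 in edgeR, 1450 lower and 927 higher, and 6 of the 10 were among those lower. The number of genes that passed that filter is not reported here, so these counts stand without a share. For any 1 gene, exact permutation of 2 against 2 libraries reaches a two-sided p of 0.33 at the lowest.

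**Figure D1:**
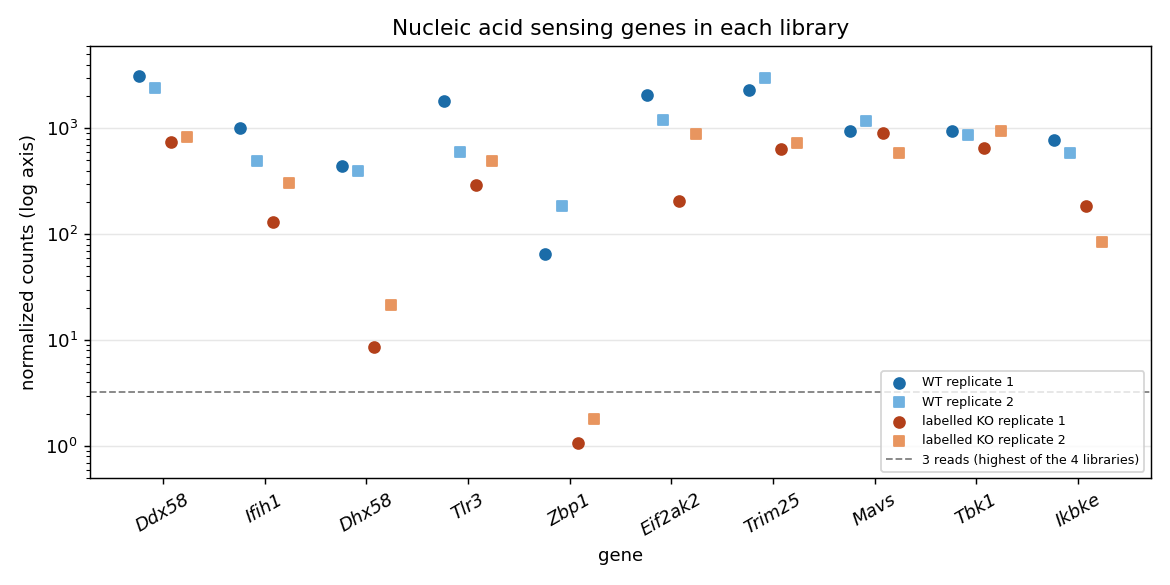
Normalized counts (log axis) of the 10 genes in each of the 4 libraries, with WT in blue and the KO-labelled libraries in red and orange, circles for replicate 1 and squares for replicate 2, and a dashed line at 3 reads. The KO-labelled points lay below the WT points for every gene except Tbk1, and Zbp1 had 1.07 and 1.80 normalized counts there, below the line.

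Markers of other cell types also differed in level between the labels. In bulk RNA, fewer cells of a type and less RNA per cell cannot be told apart. Of the 20 microglial markers, 19 were measured. Of these, 17 were lower in each KO-labelled library than in either WT library, beside 25.4% of all tested genes. Their summed level was 107 and 170 FPKM in WT against 49.9 and 40.3 in the KO-labelled libraries. Aif1, the microglial protein Iba1, had 48.0 and 116 normalized counts in WT against 5.35 and 2.70 in the KO-labelled libraries. Cx3cr1, the fractalkine receptor, had 112 and 349 in WT against 23.5 and 11.7 in the KO-labelled libraries. Csf1r, the receptor that keeps microglia alive, had 175 and 478 in WT against 35.3 and 44.2 in the KO-labelled libraries. C1qa, a subunit of complement C1q, had 268 and 442 in WT against 33.2 and 5.41 in the KO-labelled libraries. P2ry12, a receptor of resting microglia, had 6.40 and 4.60 in WT against 0 and 0.90 in the KO-labelled libraries, and it was the only microglial marker at 0 in any library. Within WT, 18 of the 19 microglial markers were higher in replicate 2, and 7 of the 10 sensing genes were higher in replicate 1. Within the KO-labelled libraries, 7 of the 19 microglial markers and 8 of the 10 sensing genes were higher in replicate 2. Each of these orders comes from only 2 libraries, and the share of all genes with any of them was not computed. The part of the microglial difference in the results below was not tested.

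The remaining marker lists were less uniform. Over all tested genes, 25.4% were lower without overlap, and the share higher without overlap was not computed. Summed astrocyte markers had 1490 and 1434 FPKM in WT against 2570 and 380 in the KO-labelled libraries, with 5 of 9 genes lower without overlap and 1 higher. Gfap made up 1871 of the 2570 FPKM in KO-labelled replicate 1, and the median log2 fold change of the astrocyte markers was -0.68. Summed mural and fibroblast markers had 77.2 and 268 FPKM in WT against 590.2 and 1412 in the KO-labelled libraries, most of it from 1 gene, the smooth muscle actin Acta2. Of these 7 genes, 3 were lower without overlap and 2 higher, and their median log2 fold change was -0.53. Oligodendrocyte lineage markers summed to 153 and 228 FPKM in WT against 370.1 and 231 in the KO-labelled libraries. Neuronal markers summed to 11.96 and 7.68 FPKM in WT against 11.1 and 17.2 in the KO-labelled libraries. Of the 5 neuronal markers tested, 4 were higher without overlap, with a median log2 fold change of 1.80. Some of the 4 had few reads. Rbfox3 had 1 and 1 reads in WT against 52 and 2 in the KO-labelled libraries, and Dcx 1 and 0 against 7 and 5. Tubb3 had 49 and 88 reads in WT against 159 and 341 in the KO-labelled libraries. Map2, the neuronal marker with the highest level, overlapped between the labels (log2 fold change -0.008). The 3 endothelial markers measured reached 1.06 FPKM at most.

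The RIG-I-like receptors were lower in the KO-labelled libraries, Ddx58 and Ifih1 by about the same amount and Dhx58 far more. Ddx58 (ENSMUSG00000040296, chr4:40203773-40239828, minus strand) encodes RIG-I, which recognises short double-stranded RNA with a triphosphate end. It had 3151 and 2379.8 normalized counts in WT against 739 and 830.1 in the KO-labelled libraries. The groups were well apart, as the lower WT library had 2.87 times the counts of the higher KO-labelled library. Between the labels the log2 fold change was -1.80 (SE 0.30, adjusted p = 0.147 from limma, Benjamini-Hochberg), and DESeq2 gave -1.82 (adjusted p = 0.00168).

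Ifih1 (ENSMUSG00000026896, chr2:62595798-62646255, minus strand) encodes MDA5, which recognises long double-stranded RNA. Its counts were 1018 and 487 in WT against 129.5 and 306 in the KO-labelled libraries. The groups did not overlap, but the libraries of each label differed by more than 2-fold, 2.09-fold in WT and 2.37-fold in the KO-labelled libraries. Its log2 fold change of -1.82 (SE 0.59, adjusted p = 0.305 from limma) ran from -2.43 without KO-labelled replicate 2 to -1.20 without KO-labelled replicate 1, and DESeq2 did not call it (adjusted p = 0.0801).

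Dhx58 (ENSMUSG00000017830, chr11:100694884-100704271, minus strand) encodes LGP2, a relative of RIG-I that lacks the signalling domains and tunes the other receptors. It had 445 and 399 normalized counts in WT against 8.56 and 21.6 in the KO-labelled libraries. WT reads on the gene numbered 851 against 32 in the KO-labelled libraries, a ratio of 26.8 after scaling by the size factors, with a 95% counting interval from 18.9 to 39.5 that leaves out the spread between libraries. limma gave Dhx58 a log2 fold change of -4.84 (SE 0.59, adjusted p = 0.102), and DESeq2 gave -4.79 (adjusted p = 1.58e-11). It was -4.22 without KO-labelled replicate 1, -5.46 without KO-labelled replicate 2, and -2.58 on the log2(FPKM + 1) scale. The antisense gene Dhx58os overlaps Dhx58 over 2637 bases, and as the strand used in counting is not given in the sources used here, reads from the pair cannot be told apart.

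Trim25 (ENSMUSG00000000275, chr11:88999376-89020293, plus strand) encodes a ubiquitin ligase that activates RIG-I. Its counts were 2310.0 and 2995 in WT against 642 and 727 in the KO-labelled libraries, with the lowest WT value 3.18 times the highest KO-labelled value. A log2 fold change of -1.94 (SE 0.30, adjusted p = 0.137 from limma) was close to that of Ddx58, and DESeq2 called it (adjusted p = 0.000527).

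Mavs (ENSMUSG00000037523, chr2:131234063-131248025, plus strand), the adaptor shared by RIG-I and MDA5, differed little. It had 949 and 1169.7 normalized counts in WT against 901 and 580.5 in the KO-labelled libraries. The lower WT library and the higher KO-labelled library stood only 1.05-fold apart. The log2 fold change was -0.54 with a 95% interval from -1.43 to 0.34 (adjusted p = 0.546 from limma), an interval that holds 0 as well as a level more than 2-fold lower.

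The 2 kinases downstream of the adaptors were unlike each other, Tbk1 overlapping between the labels and Ikbke being lower. Tbk1 (ENSMUSG00000020115, chr10:121546455-121586787, minus strand), the kinase that most cells use to activate IRF3, had 939 and 864 normalized counts in WT against 656 and 954 in the KO-labelled libraries. It was the only gene of the 10 whose groups overlapped, with a log2 fold change of -0.19, a 95% interval from -1.01 to 0.63 and an adjusted p of 0.831 from limma. Ikbke (ENSMUSG00000042349, chr1:131254343-131279606, minus strand) encodes IKKε, a relative of TBK1 with a similar substrate range. It had 772 and 588 normalized counts in WT against 185 and 83.8 in the KO-labelled libraries. The log2 fold change was -2.42 (SE 0.49, adjusted p = 0.182 from limma), and DESeq2 called it (-2.34, adjusted p = 0.00221). The difference between the kinases held within each library, where Ikbke over Tbk1 as FPKM was 0.357 and 0.295 in WT against 0.122 and 0.0381 in the KO-labelled libraries. Ikbke overlaps Gm28914 and Gm28913 on the opposite strand, over 1047 and 3420 bases.

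Tlr3 (ENSMUSG00000031639, chr8:45395665-45411080, minus strand), the endosomal receptor for double-stranded RNA, varied most between the WT libraries. It had 1795 and 592 normalized counts in WT against 289 and 489 in the KO-labelled libraries. WT replicate 1 stood 3.03-fold above WT replicate 2, whereas the lower WT value was 1.21 times the higher KO-labelled value. The log2 fold change of -1.45 (95% interval -2.99 to 0.08, adjusted p = 0.383 from limma) was -0.66 without WT replicate 1 and -2.25 without WT replicate 2. Gm45542 overlaps Tlr3 on the opposite strand over 698 bases.

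Zbp1 (ENSMUSG00000027514, chr2:173206612-173218923, minus strand) encodes a sensor of left-handed Z-form DNA and RNA that can start necroptosis and inflammasome signalling. It had 65.1 and 187 normalized counts in WT against 1.07 and 1.80 in the KO-labelled libraries. The reads behind these values were 61 and 203 in WT against 1 and 2 in the KO-labelled libraries, both below a floor of 3 reads a library. The reads were 264 against 3 in all, and their ratio after scaling by the size factors was 88.8 with a 95% counting interval from 30.1 to 433, again for counting error only. On the scale of the fit, the log2 fold change was -5.53 (SE 0.80, adjusted p = 0.127 from limma), and DESeq2 gave -6.43 (adjusted p = 3.52e-06). Both values depend on how a gene near 0 is treated, and on the log2(FPKM + 1) scale the log2 fold change was -1.36. Zbp1 was 2.87-fold higher in WT replicate 2 than in WT replicate 1. Mavs and Trim25 had the same order, 1.23-fold and 1.30-fold higher in replicate 2.

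Eif2ak2 (ENSMUSG00000024079, chr17:78852564-78882573, minus strand) encodes PKR, a kinase that binds double-stranded RNA and stops translation by phosphorylating the initiation factor eIF2α. It had 2077 and 1206 normalized counts in WT against 206 and 891 in the KO-labelled libraries. The KO-labelled libraries differed 4.33-fold from each other, the widest gap within a label among the 10 genes. Its log2 fold change of -1.88 (SE 0.74, adjusted p = 0.362 from limma) was -0.83 without KO-labelled replicate 1 and -2.94 without KO-labelled replicate 2. DESeq2 did not call it (adjusted p = 0.244). The 95% interval from limma ended at -0.02. The lincRNA gene Gm26637 and an rRNA gene overlap Eif2ak2 on the opposite strand, over 532 and 119 bases.

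**Figure D2:**
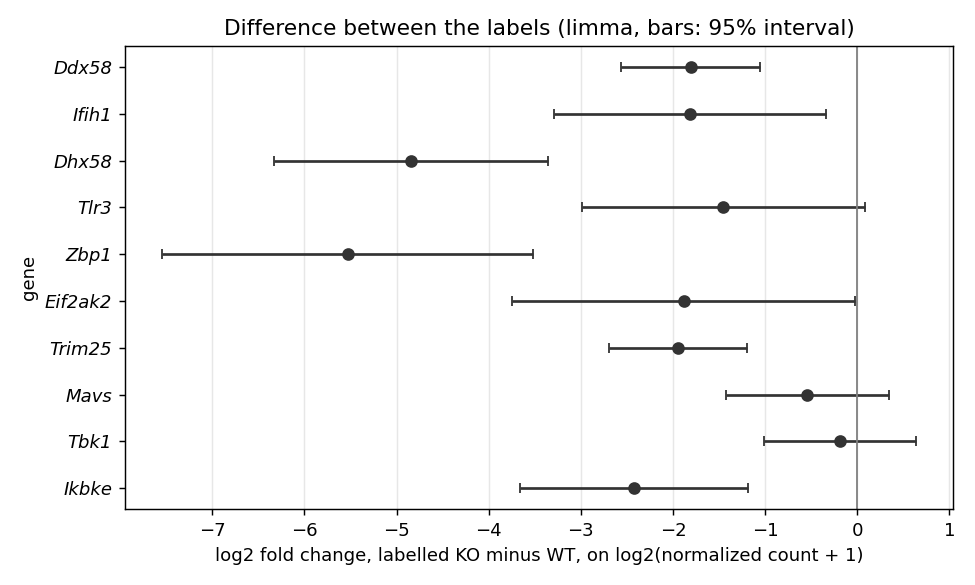
Log2 fold change between the labels (KO-labelled libraries minus WT, on log2(normalized count + 1)) for each of the 10 genes, as points with 95% intervals from limma. The intervals of Mavs, Tbk1 and Tlr3 reach past 0, and those of Dhx58 and Zbp1 lie furthest from it.

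Compared per length, the order of the genes was not the same under the 2 labels. In WT, Trim25 was highest at 22.5 ± 3.46 FPKM (SD, n = 2), followed by Ddx58 at 19.3 ± 4.35, Eif2ak2 at 15.8 ± 6.36, Mavs at 15.5 ± 1.84, Tlr3 at 11.3 ± 8.33 and Tbk1 at 11.3 ± 0.99. Each of these 6 overlapped its neighbour in the order. The next by their means were Dhx58 at 6.32 ± 0.67 FPKM, Ifih1 at 4.55 ± 2.38 and Ikbke at 3.70 ± 0.82, which also overlapped each neighbour among them. Dhx58 did not overlap Tbk1, but Tlr3 in WT replicate 2, at 5.46 FPKM, lay below both Dhx58 values. Zbp1 was lowest at 1.73 ± 1.14 FPKM, apart from Ikbke. The 10 genes thus spanned a level above 54.1% of the listed genes for Zbp1 to one above 90.6% for Trim25.

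In the KO-labelled libraries, Mavs at 10.4 ± 2.52 FPKM (SD, n = 2) and Tbk1 at 9.83 ± 3.19 led the order by their means and overlapped each other. Both lay above Trim25, the next in the order, but KO-labelled replicate 2 of Eif2ak2, at 8.62 FPKM, reached into their range. Trim25 at 5.65 ± 0.87 FPKM, Ddx58 at 5.28 ± 0.78, Eif2ak2 at 5.22 ± 4.82 and Tlr3 at 3.58 ± 1.51 followed, each overlapping the next. Ifih1 at 1.29 ± 0.81 FPKM and Ikbke at 0.69 ± 0.33 overlapped as well. Dhx58 at 0.22 ± 0.15 FPKM and Zbp1 at 0.0195 ± 0.0082 stood apart below them. The adaptor and the kinase at the head of this order were the 2 genes with the smallest differences between the labels.

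Ratios within a library, which a scaling factor common to its genes cannot move, were read as descriptions. Dhx58 over Ddx58 was 0.304 and 0.361 in WT against 0.025 and 0.0561 in the KO-labelled libraries, so Dhx58 was lower relative to Ddx58 as well as by its own count. Ddx58 over Mavs, receptor against adaptor, was 1.58 and 0.965 in WT against 0.389 and 0.679 in the KO-labelled libraries, without overlap. Ifih1 over Ddx58 was 0.279 and 0.177 in WT against 0.151 and 0.319 in the KO-labelled libraries, with overlapping groups and a log2 difference of -0.02. Tlr3 over Ddx58 and Trim25 over Ddx58 overlapped too, with log2 differences of 0.35 and -0.14. Eif2ak2 over Eif2ak3, the eIF2α kinase of the endoplasmic reticulum, was 2.90 and 1.95 in WT against 0.278 and 1.23 in the KO-labelled libraries.

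**Figure D3:**
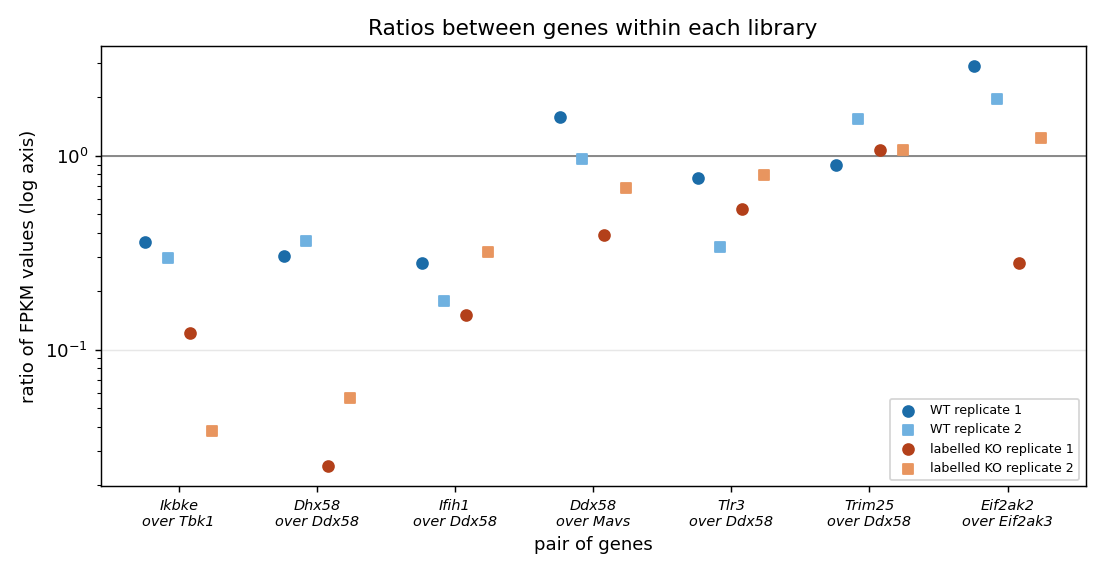
Ratio of the FPKM values of 2 genes within each library (log axis), for 7 pairs, with WT in blue and the KO-labelled libraries in red and orange, circles for replicate 1 and squares for replicate 2. The groups overlapped for Ifih1, Tlr3 and Trim25 over Ddx58 and were apart for the other 4 pairs, of which Dhx58 over Ddx58 had the largest log2 difference, -3.15.

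The genes around the sensors were read from 6 lists of 56 genes, of which 52 were measured and tested. At an unadjusted p under 0.05 from limma, 11 of the 52 were lower and 0 higher, beside 9.18% and 4.54% of all tested genes, and 0 had an adjusted p under 0.05. Without WT replicate 1, and likewise without WT replicate 2, 6 were lower. DESeq2 called 8 of the 52 lower, beside 4.80% of all genes to which it gave an adjusted p. Traf3, Traf6 and Ripk1 stand in 2 lists each and are counted once in these totals. The median log2 fold change over them was -0.28, beside -0.07 over all tested genes.

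Among 20 adaptors and regulators of the RIG-I-like receptors, 4 were lower at an unadjusted p under 0.05, 0 were higher, and the median log2 fold change was -0.32. Irf7, the transcription factor that amplifies interferon production, had 1576 and 1103 normalized counts in WT against 35.3 and 20.7 in the KO-labelled libraries (log2 fold change -5.55, adjusted p = 0.0777 from limma). Isg15, a ubiquitin-like modifier that acts on RIG-I and MDA5, had 1944 and 2427 in WT against 55.7 and 61.3 in the KO-labelled libraries (log2 fold change -5.19). Both stood far apart between the labels, and within each label Isg15 was closer between its libraries than Irf7. Zc3hav1, the zinc finger antiviral protein, had 930.4 and 738 in WT against 162 and 418 in the KO-labelled libraries (-1.67). Tbkbp1, an adaptor of TBK1, had 935 and 957 in WT against 302 and 425 in the KO-labelled libraries (-1.40).

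Several partners of Mavs and Tbk1 had no p under 0.05. Irf3, the constitutive counterpart of Irf7, had 751 and 944 normalized counts in WT against 892 and 821 in the KO-labelled libraries (log2 fold change 0.02, 95% interval -0.73 to 0.78). Traf3, a ubiquitin ligase at MAVS, had 2782 and 3543 in WT against 2696 and 3488 in the KO-labelled libraries (-0.03). Both genes overlapped between the labels, as did Tank, a scaffold of the kinases, with a log2 fold change of -0.27. Ikbkg, which encodes NEMO, had a log2 fold change of 0.77 and lay above WT in both KO-labelled libraries. Rnf135, the ligase Riplet, had one of -0.86 and lay below WT in both.

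In the TLR3 branch, 1 of 7 genes was lower and 0 were higher at an unadjusted p under 0.05, and the median log2 fold change was -0.07. Unc93b1, the chaperone that carries Tlr3 to endosomes, had 383 and 684 normalized counts in WT against 51.4 and 34.3 in the KO-labelled libraries (log2 fold change -3.58, adjusted p = 0.120 from limma). Ticam1, which encodes the Tlr3 adaptor TRIF, had 409.7 and 398 in WT against 447 and 331 in the KO-labelled libraries, with overlapping groups (-0.07). The receptor's chaperone was thus far apart between the labels while its adaptor was not.

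Of the 9 DNA sensing genes measured, 1 was lower and 0 were higher at an unadjusted p under 0.05, beside 9.18% and 4.54% of all tested genes. The median log2 fold change was -1.17, over a list in which some genes had few reads. Aim2 had 3 and 15 reads in WT against 2 and 1 in the KO-labelled libraries, and Ifi203 0 and 3 against 0 and 5. Samhd1 and Ddx41, with more reads, had log2 fold changes of -0.45 and 0.36. Pycard, the inflammasome adaptor ASC, had 27.7 and 35.9 normalized counts in WT against 3.21 and 8.11 in the KO-labelled libraries (-2.39), and DESeq2 did not call it. Mb21d1, which encodes cGAS, had 2.13 and 18.4 in WT against 15.0 and 56.8 in the KO-labelled libraries, too uneven to separate the labels. Tmem173, which encodes STING, had 60.8 and 107 in WT against 41.7 and 29.7 in the KO-labelled libraries, without overlap (-1.17, adjusted p = 0.441 from limma).

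Of the 5 genes of Zbp1-driven cell death, 0 had an unadjusted p under 0.05 from limma, 0 were called by DESeq2, and the median log2 fold change was 0.08. Ripk3, the kinase that Zbp1 engages, had 5.33 and 41.4 normalized counts in WT against 3.21 and 9.01 in the KO-labelled libraries. Mlkl, the effector of necroptosis, had 84.3 and 75.4 in WT against 7.49 and 73.9 in the KO-labelled libraries, so replicate 2 of the latter was close to WT.

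Of the 7 eIF2α kinases and partners of PKR, 1 was lower and 0 were higher at an unadjusted p under 0.05, and the median log2 fold change was 0.19. Adar, the enzyme that edits adenosines in double-stranded RNA, had 2581 and 2828 normalized counts in WT against 1071 and 1146 in the KO-labelled libraries (-1.28, adjusted p = 0.194 from limma), and DESeq2 called it (adjusted p = 0.0365). The other eIF2α kinases Eif2ak1, Eif2ak3 and Eif2ak4 had log2 fold changes of 0.19, 0.14 and 0.29, against -1.88 for Eif2ak2.

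Of the 7 interferon receptor and response genes measured, 4 were lower and 0 were higher at an unadjusted p under 0.05, with a median log2 fold change of -1.05. Stat2, a transcription factor activated by the interferon receptor, had 2503 and 2725 normalized counts in WT against 358 and 323 in the KO-labelled libraries (-2.94), and Irf9, its DNA-binding partner, had 2211 and 2463 in WT against 823 and 352 in the KO-labelled libraries (-2.11). Both were lower without overlap, and DESeq2 called each of them. Ifnar2, a receptor chain, had 1082 and 994 in WT against 552 and 451 in the KO-labelled libraries (-1.05), whereas its partner Ifnar1 had 1619 and 2064 in WT against 2154 and 2303 in the KO-labelled libraries (0.29). The interferon genes Ifnb1, Ifna2 and Ifna4 were not analysed here.

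**Figure D4:**
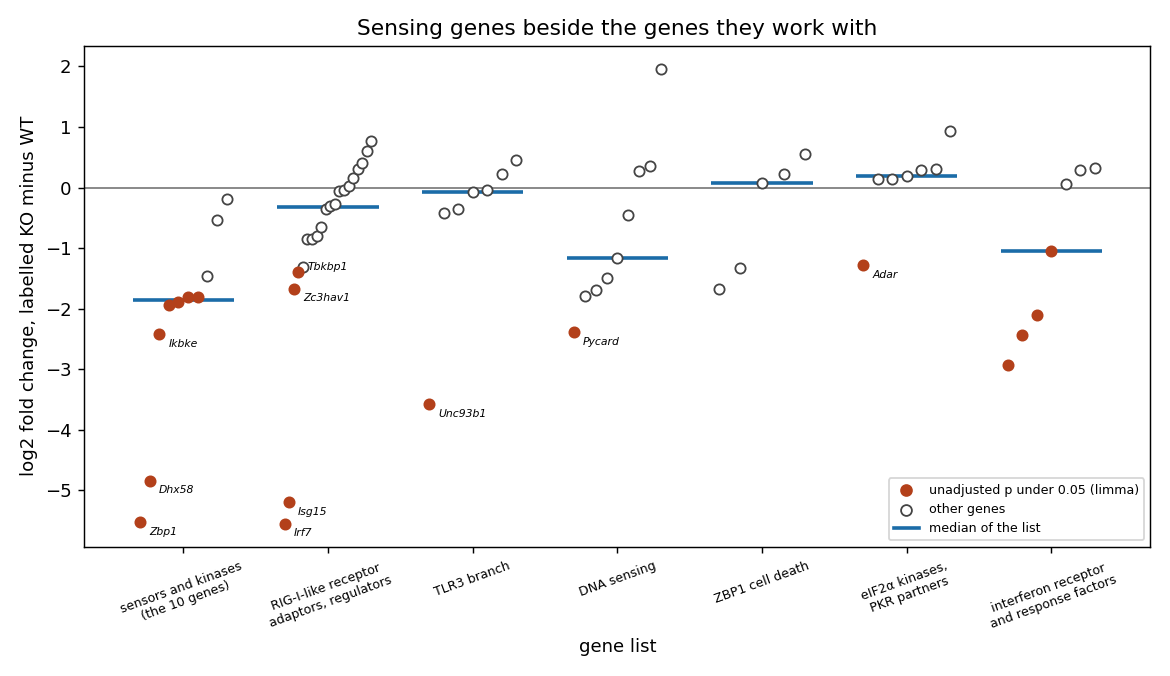
Log2 fold change between the labels (KO-labelled libraries minus WT) for the 10 genes and for the genes of 6 related lists, each point a gene, filled where the unadjusted p from limma is under 0.05, with the median of each list as a blue line. The median was -1.85 for the 10 genes and between -1.17 and 0.19 for the 6 lists, and no filled point lies above 0.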

How the data were processed

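RNA-seq of primary mouse astrocyte cultures, 2 WT libraries and 2 labelled Tet1 KO, was grouped by the genotype and replicate in the sample labels. Paired-end Illumina reads were filtered and aligned to mm10 by the authors, and the aligner, the counting program, the strand setting and the annotation release are not given in the sources used here. The deposited values give each gene 1 signal in each library, and the table is titled as FPKM. They were found to be read counts divided by a size factor, with no correction for length: 100% were whole multiples of 1 read within 0.1, and whole reads were recovered. The other deposited column used is gene length. The deposited group means, fold changes and p-values hold the authors' own comparison and were not used. There were 0 unused per-sample columns.

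The fit was limma 3.58.1 in R 4.3.3 (variance trend, log2(normalized count + 1), mean of at least 1, Benjamini-Hochberg adjustment over all tested genes, threshold 0.05), as planned for normalized values. The pseudocount understates the change of low genes. On the recovered reads, edgeR 4.0.16 (quasi-likelihood) and DESeq2 1.42.0 served as alternatives. Each fit was first run on simulated data, with a pass condition set for limma only, and the outcome is not reported here. FPKM used the recovered reads, gene lengths and total reads on genes. Positions come from the deposited table and equal those of GENCODE M21 for all 10 genes. Tables were made with Python 3.11.15, pandas 2.3.3, numpy 2.4.6 and scipy 1.17.1, and plots with matplotlib 3.10.9. Intervals on reads and the floor of 3 reads cover counting error only. Libraries of a label differed beyond sampling noise (median chi-square per gene 8.04 in WT and 27.1 in the KO-labelled libraries, 0.455 being expected).

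The 10 genes and the lists were chosen with earlier results of these data known. Named were the 10 genes, Tet1, 3 astrocyte and 5 microglial markers, a fixed set of partners, and list genes with an unadjusted limma p under 0.05 and no overlap between the labels. Some other genes of the marker and pathway lists were named for their part in a sum, count or median. The alternatives changed the pseudocount, the filter, the scaling, the variance trend and the tool, left out each library, or used the replicate number as a block. Protein sequences and the genes Trex1, Siglech and Cldn5 were not analysed here. Values of some single genes in the lists are not reported here.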

Additional observations from a re-analysis of the deposited data

How the results depend on the processing

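Over 16 alternatives, the log2 fold change of 9 of the 10 genes kept its sign in each, and that of Tbk1 lay between -0.46 and 0.083 with 1 library left out, the positive value without KO-labelled replicate 1. The number of the 10 genes lower at an unadjusted p under 0.05 was 7, and 4 to 7 with 1 library left out. With all libraries kept, that number was 5 as log2(FPKM + 1) and without the variance trend, and 8 in DESeq2. In that order, 2072, 2144 and 1776 of all genes were lower at the same threshold. It was 6 with a pseudocount of 0.1, no filter, a minimum mean of 10, libraries scaled to equal sums, and edgeR. There, in that order, 1895, 2057, 1483, 2163 and 1450 of all genes were lower. Eif2ak2 lay close to the threshold, with an unadjusted p of 0.048 from limma and 0.101 from edgeR. The median over the 10 genes was -1.85, and -1.42 as log2(FPKM + 1). By DESeq2, 1106 of all genes and 5 of the 10 (Ddx58 at -1.82, Dhx58 at -4.79, Zbp1 at -6.43, Ikbke at -2.34 and Trim25 at -1.95) passed an adjusted p under 0.05, where limma and edgeR had 0 of all genes. The cause was not tested. Genes of the 6 lists lower at an unadjusted p under 0.05 ranged from 6 to 14 with 1 library left out, against 11, and those higher from 0 to 3, against 0, with 1 under a pseudocount of 5 and 1 in edgeR. With DESeq2, 0 of the DNA sensing genes were lower, against 1. Over all genes, lower genes at an unadjusted p under 0.05 numbered 862 without WT replicate 1 and 897 without WT replicate 2, against 2028, and higher genes 273, 483 and 1820 without WT replicate 1, WT replicate 2 and KO-labelled replicate 1, against 1004. Leaving out a library also leaves its label with 1, assumed to vary like the other label. Promoters with the interferon motif went from 3 to 7 of 8 with 1 mismatch allowed, as the looser motif matches more sequence. The median of all genes moved from -0.07 to 0.08 at most, under quantile normalization. The replicate numbers share only a number: deviations of same-numbered libraries correlated at -0.08. With the replicate block, the 10 genes had a median of -1.85, with 7 lower at an unadjusted p under 0.05 and 0 at an adjusted p, 11 list genes were lower, and all genes had 1821 lower and 762 higher. Depth limits Zbp1 in the KO-labelled libraries, where it had 1 and 2 reads.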

Other observations

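A list of 12 enzymes that clear or process nucleic acids, among them the RNase H2 subunits, Dnase2a, Dicer1 and Xrn1, was added after values had been seen. At an unadjusted p under 0.05 from limma, 0 were lower and 1 was higher, beside 9.18% and 4.54% of all tested genes, and DESeq2 called 0. The median log2 fold change was 0.06, beside -0.07 over all tested genes. The gene past the unadjusted threshold was Rnaseh2b, a subunit of the enzyme that removes RNA from RNA-DNA hybrids, with 123 and 129 normalized counts in WT against 344 and 268 in the KO-labelled libraries (log2 fold change 1.26, standard error 0.38, adjusted p = 0.280 from limma). Xrn1, the exonuclease that degrades decapped RNA, had 1076 and 557 normalized counts in WT against 352 and 1112 in the KO-labelled libraries, so the groups overlapped. Dicer1, which cuts double-stranded RNA into small RNAs, overlapped as well, with a log2 fold change of 0.01 and a 95% interval from -0.82 to 0.83.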
